A study of Homo sapiens with 9 samples.

Results

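The protein part of the cytosolic ribosome is encoded by the RPL genes of the large subunit and the RPS genes of the small subunit, and 77 of the 26485 genes in the count table belong to it. They were taken by symbol: RPL or RPS followed by a number with an optional A or X, together with RPSA, RPLP0, RPLP1 and RPLP2, which gave 46 large-subunit and 31 small-subunit genes on 21 chromosomes. Regions downstream of the same genes were taken from the authors' tables of transcription past gene ends.

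The samples were HEK293 cells, a line derived from human embryonic kidney, in 3 groups of 3 poly(A)-selected RNA libraries: UBE3D addback, UBE3D KO and UBE3D WT. UBE3D had been deleted with CRISPR/Cas9, and its product is a ubiquitin ligase family protein studied here with CPSF73, the endonuclease that cuts pre-mRNA before polyadenylation. The labels call every sample pooled and say neither whether the KO is 1 clone, nor which promoter drives the addback, nor whether libraries came from separate cultures, so p-values measure the spread between these libraries, which may be technical. UBE3D averaged 3153 ± 313 scaled CPM in addback cells, 14.2 ± 1.27 in KO cells and 22.7 ± 3.89 in WT cells (SD, n = 3 each).

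A ribosome carries most of these proteins in a single copy, and cells make them in matched amounts. Their mRNAs are short, abundant and stable, and most begin with a C followed by an unbroken run of pyrimidines, the terminal oligopyrimidine tract, through which growth signals control their translation. Many of the genes carry small nucleolar RNAs (snoRNAs) in their introns, and many have processed pseudogenes elsewhere in the genome whose reads can be confused with theirs.

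The starts of 8 genes are printed because the 4 that fell together on chromosome 9 and the 4 with other patterns carry the same kind of tract. Each line gives 10 bases before the RefSeq start (GRCh38.p14) and 20 from it, in the sense direction, and capitals mark the unbroken run of C and T that begins with C at the start. The 4 genes at the top had the strongest rise in KO cells (RPS23 at chr5:82278335-82278364 on the minus strand, RPSA at chr3:39406710-39406739 on the plus strand), a rise in both addback and KO cells (RPS19 at chr19:41860245-41860274, plus strand) and a fall in KO cells (RPL36A at chrX:101391001-101391030, plus strand). The other 4 lie on chromosome 9: RPS6 at chr9:19380217-19380246 on the minus strand, RPL7A at chr9:133348208-133348237 on the plus strand, RPL35 at chr9:124861938-124861967 and RPL12 at chr9:127451387-127451416, both on the minus strand.
RPS23: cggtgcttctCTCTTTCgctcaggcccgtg
RPSA: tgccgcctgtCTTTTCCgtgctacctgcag
RPS19: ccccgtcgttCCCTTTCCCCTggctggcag
RPL36A: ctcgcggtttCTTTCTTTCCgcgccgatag
RPS6: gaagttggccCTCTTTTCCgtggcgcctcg
RPL7A: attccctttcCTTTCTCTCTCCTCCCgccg
RPL35: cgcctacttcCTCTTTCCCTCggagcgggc
RPL12: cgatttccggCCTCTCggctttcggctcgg

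A C-first run of at least 5 pyrimidines was present at the listed start in 46 of the 62 members with a start sequence, or 74.2%, against 6.24% of 15842 coding genes. RefSeq starts can lie some bases from the start used in a cell, so a missing run says only that it is not at that base. The 46 genes with the run had a median log2 fold change of 0.23 in KO against WT cells, and the 16 without it had 0.25.

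Library totals ran from 23088295 to 37508780 counts. Silent, tissue-restricted genes had counts more often in some libraries than in others. Of 579 such genes with a coding length, 95.5% to 96.2% had a count in each addback and WT library. In each KO library 14.7% to 17.3% of them had a count. Counts per gene do not show where in a gene these reads lie. The estimated background was 2.79%, 11.7% and 11.5% of the counts in addback libraries 1 to 3, 0% in each KO library, and 2.99%, 8.23% and 14.5% in WT libraries 1 to 3. Levels are therefore given as CPM scaled with factors from 5917 low-background genes (scaled CPM), whose estimated background is at most 10% of their level. All 77 members passed the count filter and 76 were low-background genes. The exception was RPS10, with an estimated background of 41.4% of its level. Marker genes of cell types were read as CPM of all counts in a library, without that scaling (unscaled CPM). All 10 HEK293 marker genes had a mean of 1 unscaled CPM or more in every group. Markers of other tissues moved with the background. Of 4 hepatocyte markers 4 reached that level in addback cells, 0 in KO cells and 4 in WT cells. They summed to 4.94 to 17.3, 0.187 to 0.722 and 4.82 to 33.6 unscaled CPM in addback, KO and WT libraries. The counts in addback, KO and WT cells were 5, 1 and 5 of 5 for blood, 4, 1 and 4 of 4 for muscle, 5, 0 and 5 of 5 for mature kidney, and 4, 3 and 4 of 4 for fibroblasts.

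The ribosomal protein genes took up a larger part of the counts of low-background genes in KO cells than in addback or WT cells. Their share of the counts of low-background genes was 7.30%, 7.20% and 6.78% in addback libraries, 7.97%, 7.56% and 7.70% in KO libraries, and 7.11%, 6.63% and 6.70% in WT libraries. Every KO library lay above every addback and WT library, while addback and WT libraries overlapped. The median member stood at 548 to 601 scaled CPM in addback libraries, 646 to 682 in KO libraries and 525 to 561 in WT libraries. Within each group library 1 was the highest for most members: 63 of 77 in addback, 72 in KO and 74 in WT cells. Libraries of addback 1 and WT 1 also had the lowest background of their groups. Counts of low-background genes can hold some background in addback and WT libraries, while the estimate was 0% in KO libraries. The part of background in the members' levels and shares was not tested beyond the subtractions of background. In RNA from bulk cultures a change in the share of cells and a change per cell cannot be told apart.

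**Figure D1:**
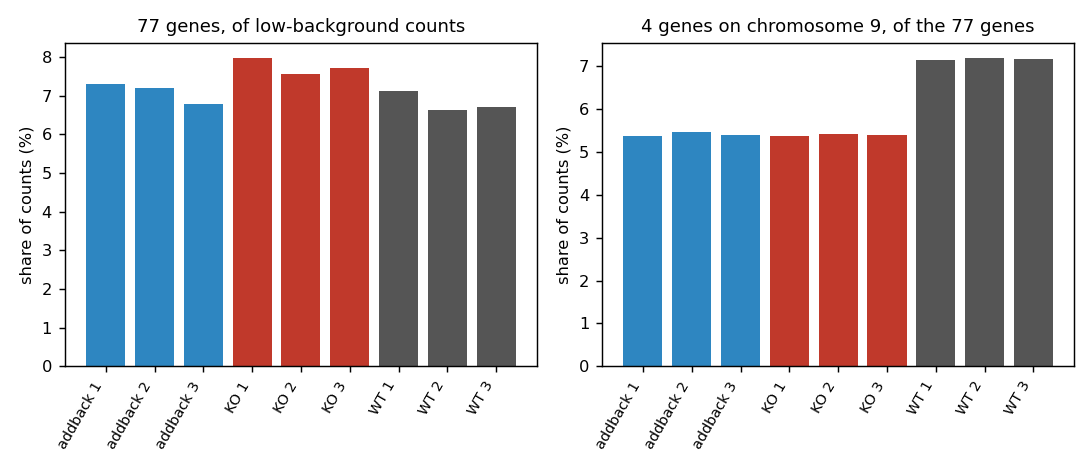
Left, share (%) of the counts of low-background genes taken by the 77 ribosomal protein genes in each library, with KO libraries at 7.56% to 7.97% and all others at 7.30% or less. Right, share (%) of the 77 genes' own counts taken by their 4 members on chromosome 9, with addback and KO libraries at 5.37% to 5.46% and WT libraries at 7.15% to 7.20%.

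Members spanned a wide range of levels. Per kilobase of the shortest complete coding transcript in GENCODE v29, RPLP1, RPS16 and RPS19 were the highest, at 4195, 2881 and 2700 scaled CPM per kb over all libraries, although the value for RPLP1 rests on a transcript of 256 bases. For any member the shortest transcript need not be the most used one, so the order can depend on that choice. RPS10, RPL36A and RPL17 were the lowest, at 8.18, 31.8 and 36.7 scaled CPM per kb, and all 3 lie in loci that share exons with annotated readthrough genes. The other 74 members were each above 100 scaled CPM.

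In KO against WT cells most ribosomal protein genes were higher by a small and even amount. By edgeR's quasi-likelihood test, 62 of 77 members rose, 5 fell and 10 did not pass at an adjusted p of 0.05 over 21994 genes. Among all genes tested 7.98% rose and 54.7% fell, among low-background genes 24.1% rose and 27% fell, and among genes of at least 100 scaled CPM 32.7% rose and 24.2% fell. The members' median log2 fold change was 0.23, with a range of -0.53 to 0.40, against -0.01 over low-background genes and 0.02 over the other 2398 genes of at least 100 scaled CPM. All 3 KO libraries lay above all 3 WT libraries for 65 members and below them for 5, against 27.3% and 32.2% of low-background genes. With the estimated background subtracted 57 members rose, and with 2 times that background subtracted 28 rose. Without the 4 libraries of highest background (addback and WT 2 and 3, an alternative chosen after seeing the data) 52 rose and 5 fell, but that fit holds 1 addback and 1 WT library, each assumed to vary like the 3 KO libraries. The size of the shift depended on scaling and background: the members' median was 0.60 with TMM factors over all genes, 0.52 with DESeq2's own size factors, 0.39 with upper quartile factors, and 0.17 and 0.11 with 1 and 2 times the background subtracted. In the authors' deposited gene table, whose folds appear shrunken, 71 of the members were higher and 0 lower with a median of 0.46. There 21.1% of all genes were higher and 41.2% lower.

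**Figure D2:**
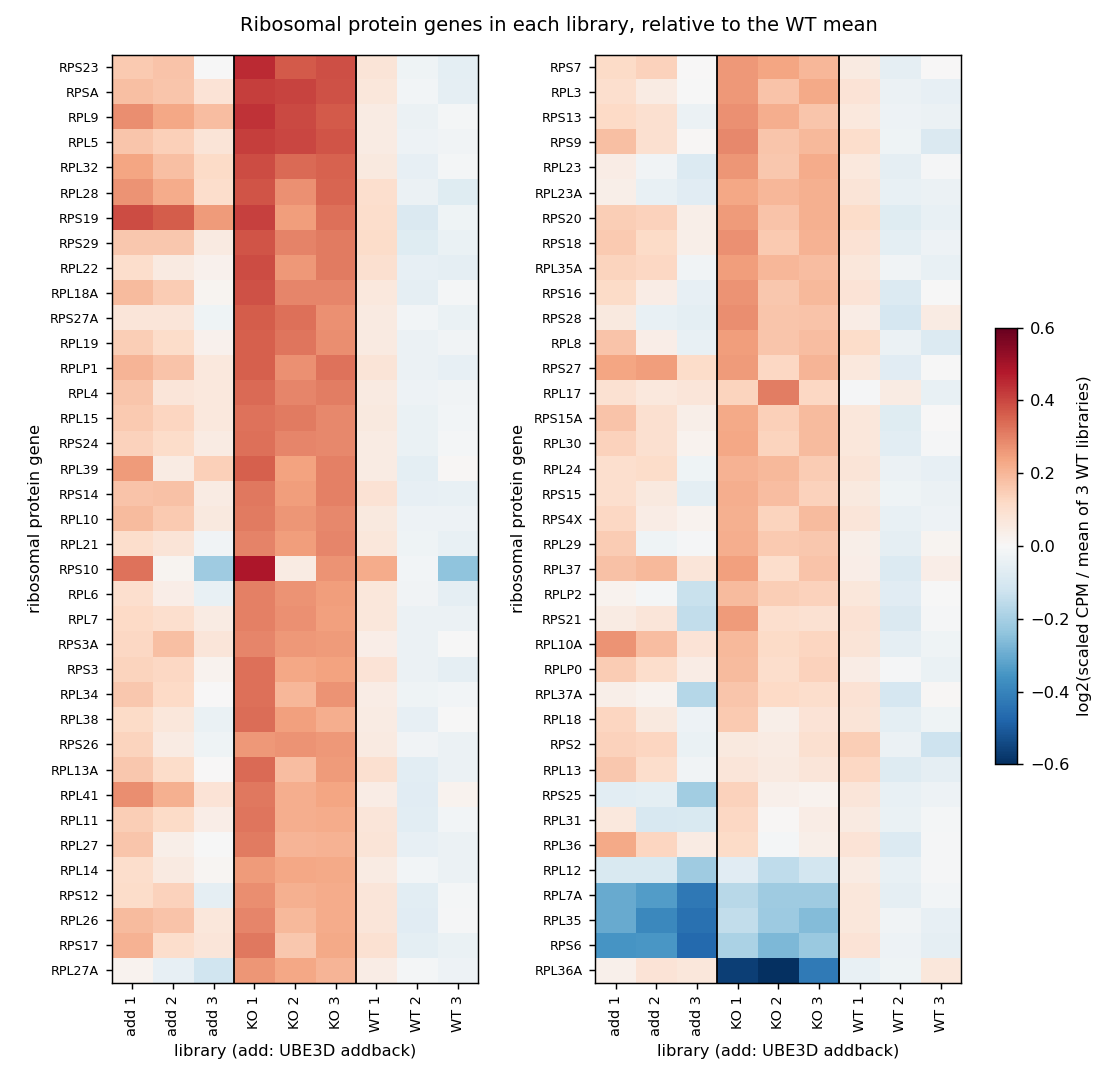
Heat map of log2(scaled CPM over the mean of the 3 WT libraries) for 74 of the 77 genes (rows, from the highest KO against WT fold change, 0.40, to the lowest, -0.53) in addback, KO and WT libraries (columns). KO columns are the reddest for most rows, the 4 rows of chromosome 9 genes near the bottom right are blue in addback and KO columns, and RPL36A is blue in KO columns alone.

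Among small-subunit genes 26 of 31 rose in KO against WT cells and RPS6 fell. RPS23, a protein of the decoding centre, stood at 618, 624 and 554 scaled CPM in addback libraries, 757, 715 and 725 in KO libraries and 585, 545 and 532 in WT libraries. The KO libraries were above all others, and its log2 fold change in KO against WT cells was 0.40 ± 0.05 (SE, adjusted p = 0.00097, edgeR). RPSA, a small-subunit protein also known as the laminin receptor, had 838, 832 and 818 scaled CPM in KO libraries and 658, 620 and 606 in WT libraries, with no overlap. Its log2 fold change was 0.40 ± 0.04 (adjusted p = 0.00025, edgeR). RPS19, the gene most often mutated in Diamond-Blackfan anaemia, averaged 1448 ± 79.0 scaled CPM in KO cells and 1150 ± 78.0 in WT cells (SD, n = 3 each), a log2 difference of 0.33.

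Among large-subunit genes 36 of 46 rose in KO against WT cells and 4 fell. RPL5, which with RPL11 and 5S rRNA forms the particle that can bind MDM2, had 942, 928 and 885 scaled CPM in addback libraries, 1118, 1110 and 1090 in KO libraries and 869, 821 and 827 in WT libraries. The 3 groups did not overlap, and KO exceeded WT by 0.40 ± 0.03 on the log2 scale (SE, adjusted p = 0.00014, edgeR). RPL11 averaged 759 ± 31.0 scaled CPM in KO cells and 636 ± 30.2 in WT cells (SD, n = 3 each), a log2 fold change of 0.26 (adjusted p = 0.0021, edgeR), and with 2 times the background subtracted it was 0.13 and did not pass (adjusted p = 0.077, edgeR). RPL9, a protein near the base of the stalk, had 653, 635 and 623 scaled CPM in KO libraries and 499, 471 and 478 in WT libraries, again without overlap. RPL9 had a log2 fold change of 0.40. RPL32, a large-subunit gene with 1 snoRNA inside it, had 591, 568 and 542 scaled CPM in addback libraries, 657, 635 and 641 in KO libraries and 522, 485 and 497 in WT libraries. The groups of RPL32 did not overlap, and its log2 fold change in KO against WT cells was 0.36 ± 0.04 (SE, adjusted p = 0.00045, edgeR). The 3 stalk genes, whose proteins recruit translation factors, all rose, with log2 fold changes of 0.14 for RPLP0, 0.32 for RPLP1 and 0.16 for RPLP2. The rise of RPLP2 did not pass with the estimated background subtracted, at 0.096 (adjusted p = 0.090, edgeR), nor without KO library 1 or WT library 2. The rise of RPLP0 did not pass with 2 times that background subtracted, at 0.016 (adjusted p = 0.78, edgeR). Neither passed in the fit with 1 WT library, at 0.096 for RPLP0 and 0.086 for RPLP2 (adjusted p = 0.085 and 0.12, edgeR).

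**Figure D3:**
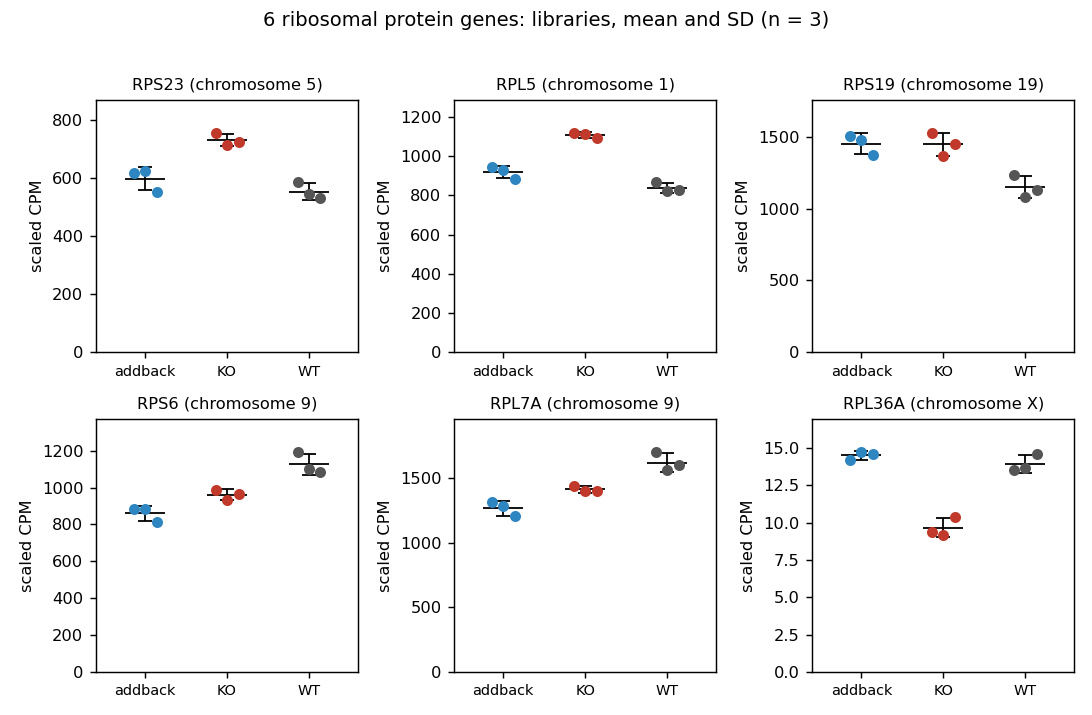
Scaled CPM of 6 ribosomal protein genes in addback, KO and WT libraries (points), with the mean and SD of each group (bars, n = 3). RPS23 and RPL5 are highest in KO cells, RPS19 is about equal in addback and KO cells and lower in WT cells, RPS6 and RPL7A are highest in WT cells, and RPL36A is lowest in KO cells.

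The 10 members that did not pass were RPL36, RPL31, RPS25, RPL13, RPS2, RPL18, RPL37A, RPS21, RPL17 and RPS10. Their log2 fold changes lay between 0.05 for RPL36 and 0.28 for RPS10, and RPS10 had a standard error of 0.32. A total of 14 members changed call between scalings, the 5 with the smallest fold changes being RPL36, RPL31, RPS25, RPL13 and RPS2, each of which rose under at least 1 scaling over all genes. Leaving out 1 library at a time kept 60 of the 67 calls. Calls lost in at least 1 case included those of RPL10A, RPL12, RPL37, RPL8, RPLP2 and RPS9, with adjusted p up to 0.23 for RPL12 (edgeR).

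All 4 members on chromosome 9 fell in KO against WT cells, while 62 of the other 73 rose and 1 fell. RPS6, the small-subunit protein phosphorylated by S6 kinase, had 882, 884 and 815 scaled CPM in addback libraries, 989, 933 and 966 in KO libraries and 1192, 1103 and 1083 in WT libraries. WT libraries were the highest and addback libraries the lowest, with no overlap, and KO was below WT by a log2 fold change of -0.23 ± 0.05 (SE, adjusted p = 0.0034, edgeR). RPL7A, a large-subunit protein with 4 snoRNAs inside its gene, had 1315, 1283 and 1204 scaled CPM in addback libraries, 1442, 1399 and 1399 in KO libraries and 1700, 1561 and 1601 in WT libraries. Its log2 fold change in KO against WT cells was -0.20, and that of RPL35, which sits at the polypeptide exit, was -0.21. RPL12, a protein of the stalk base, was the least changed, at -0.11 (adjusted p = 0.047, edgeR), and its call did not pass in 7 of the 9 fits that left out 1 library, all but those without addback library 3 or WT library 2. The direction of these 4 depended on scaling: with TMM factors over all genes, which moved the median of all genes by 0.38, RPS6, RPL35, RPL7A and RPL12 were at 0.13, 0.15, 0.16 and 0.25, and none passed.

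Other genes on chromosome 9 were also lower in KO cells. Among 209 other low-background genes on chromosome 9, 196 fell and 1 rose in KO against WT cells, with a median log2 fold change of -0.45. In addback against KO cells these 209 genes had a median of 0.01, and in addback against WT cells -0.42. The 4 ribosomal protein genes made up 5.37%, 5.46% and 5.40% of the members' counts in addback libraries, 5.38%, 5.43% and 5.40% in KO libraries, and 7.15%, 7.20% and 7.17% in WT libraries. These shares are free of any scaling between libraries, and addback and KO libraries overlapped while all WT libraries were higher. Chromosome 7, which holds no member, had a shift in the same direction. Of 260 low-background genes there 163 fell and 11 rose in KO against WT cells. The medians were -0.21 in that comparison and -0.22 in addback against WT cells. Smaller shifts were seen on chromosome 6 (184 fell and 37 rose of 375, medians -0.12 and -0.10) and chromosome 2 (146 fell and 44 rose of 401, medians -0.08 and -0.10). Each of these 2 holds 4 members, of which 3 and 2 rose and 0 fell in KO against WT cells. The part of chromosome position in the members' folds was not tested.

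**Figure D4:**
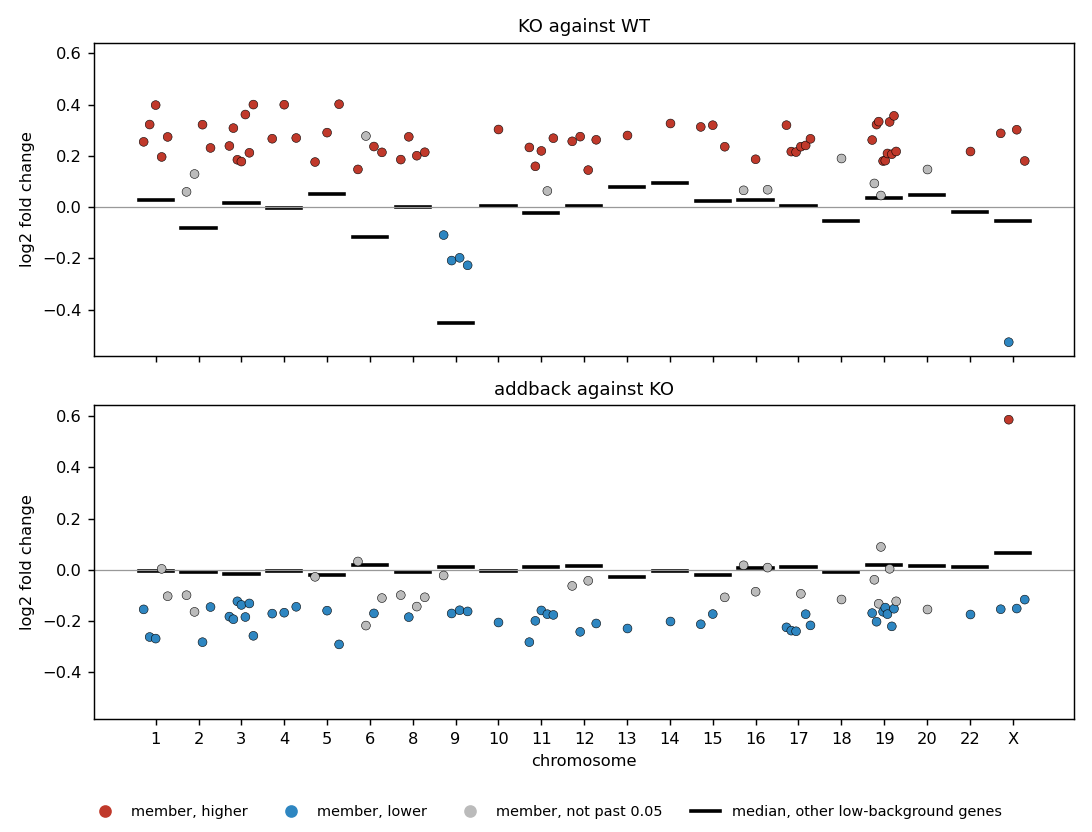
Log2 fold change of each of the 77 genes (points, coloured by edgeR call) by chromosome, in KO against WT cells (top) and addback against KO cells (bottom), with black lines for the median of the other low-background genes on that chromosome. In the top panel the 4 points on chromosome 9 lie below 0, where the black line is at -0.45, and in the bottom panel its line is at 0.01.

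RPL36A, a large-subunit gene on the X chromosome, had the lowest fold change of the family. It had 14.2, 14.7 and 14.6 scaled CPM in addback libraries, 9.41, 9.21 and 10.4 in KO libraries, and 13.5, 13.7 and 14.6 in WT libraries. The KO libraries lay below all others, and addback and WT libraries overlapped. The log2 fold change was -0.53 ± 0.13 in KO against WT cells (SE, adjusted p = 0.0064, edgeR) and 0.59 ± 0.13 in addback against KO cells (adjusted p = 0.0048, edgeR). With TMM factors over all genes these were -0.16 (adjusted p = 0.37) and 0.25 (adjusted p = 0.16), and with 2 times the background subtracted -0.37 (adjusted p = 0.079) and 0.45 (adjusted p = 0.055), all by edgeR. The estimated background was 9.80% of its level, close to the limit for a low-background gene. Its autosomal paralog RPL36AL averaged 101 ± 5.24 scaled CPM in addback cells, 108 ± 5.62 in KO cells and 86.6 ± 8.17 in WT cells (SD, n = 3 each), and rose in KO against WT cells by 0.31 ± 0.07 (SE, adjusted p = 0.0053, edgeR).

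For 2 other loci the counts were low beside the rest of the family. RPS10 had 157, 137 and 111 counts in addback libraries, 170, 128 and 209 in KO libraries and 154, 150 and 82 in WT libraries, and it shares exons with the annotated readthrough gene RPS10-NUDT3. RPL17 had 606, 644 and 615 counts in addback libraries, 605, 696 and 860 in KO libraries and 598, 714 and 427 in WT libraries, or means of 21.2, 23 and 20.1 scaled CPM in addback, KO and WT cells, and it shares exons with RPL17-C18orf32. Neither passed in any of the 3 comparisons with factors from low-background genes. RPL17 rose in KO against WT cells under each of the 3 scalings over all genes, and was at 0.42 (adjusted p = 0.00054) in the authors' deposited gene table. The readthrough gene RPL17-C18orf32 itself had 5, 5 and 5 counts in addback libraries, 11, 16 and 22 in KO libraries and 2, 3 and 5 in WT libraries, and it rose in KO against WT cells (log2 fold change 2.03 ± 0.55, SE, adjusted p = 0.011, edgeR). Reads shared by a gene and its readthrough partner may be left uncounted or split, depending on the counting, which is not given in the sources used here.

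In addback against KO cells most members were lower. By edgeR, 50 of 77 fell, 1 rose and 26 did not pass, where 5.89% of all genes, 19.1% of low-background genes and 32.8% of genes of at least 100 scaled CPM fell, and 51.2%, 18.7% and 13.1% rose. The members' median log2 fold change was -0.16, against 0.00083 over low-background genes. Addback libraries lay wholly below KO libraries for 56 members, against 26.8% of low-background genes. The lowest values were -0.29 for RPS23, -0.28 for RPS27A, whose product is a fusion of ubiquitin and a small-subunit protein, -0.28 for RPL27A, -0.27 for RPL5, -0.26 for RPL22 and -0.26 for RPSA. RPS27A, for example, had 368, 369 and 344 scaled CPM in addback libraries and 450, 440 and 424 in KO libraries, with no overlap (adjusted p = 0.002, edgeR). RPL27A had 435, 413 and 393 scaled CPM in addback libraries, 514, 502 and 494 in KO libraries and 441, 424 and 419 in WT libraries, so its addback libraries fell within or below the WT range. RPL22, a large-subunit protein also known to bind RNAs outside the ribosome, had 453, 437 and 429 scaled CPM in addback libraries, 553, 505 and 523 in KO libraries and 450, 408 and 406 in WT libraries. For both genes every KO library was above every other library.

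RPS19 was among the members that did not fall in addback against KO cells. Its libraries had 1506, 1480 and 1371 scaled CPM in addback cells, 1528, 1370 and 1446 in KO cells and 1235, 1083 and 1131 in WT cells. Addback and KO libraries overlapped, with a log2 difference of 0.0044 ± 0.06 (SE, adjusted p = 0.95, edgeR), and both lay above WT libraries. RPS27, RPL13, RPS2, RPL10A and RPL36 were also at or slightly above 0 in addback against KO cells, between 0.0041 and 0.09, and did not pass. The direction of RPS19, RPS27, RPL13, RPS2 and RPL10A depended on scaling, since with DESeq2's own size factors they fell by 0.26 to 0.29. With TMM factors over all genes RPS19 and RPS27 were at -0.33 each and did not pass.

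The size of the fall in addback against KO cells moved with scaling and with the treatment of background. The members' median was -0.49 with 68 lower under TMM factors over all genes, -0.45 with 74 lower under DESeq2's own size factors, and -0.32 with 65 lower under upper quartile factors. In the authors' deposited gene table, whose folds are shrunken, 74 members were lower and 1 higher with a median of -0.40, where 22.2% of all genes were lower and 39.8% higher. With the estimated background subtracted 23 members fell and the median was -0.09, and with 2 times that background 4 fell, 3 rose and the median was -0.02. Without the 4 libraries of highest background, which leaves 1 addback library, 32 fell and 3 rose. The count was 27 without KO library 1 and 30 without addback library 3, and 28 of the 51 calls held in all 9 fits that left out 1 library.

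Few members passed between addback and WT cells. By edgeR 6 of 77 members rose, 3 fell and 68 did not pass, where 12% of low-background genes rose and 14% fell, and 4.44% and 4.84% of all genes. The median log2 fold change was 0.09. With the replicate number as a block 24 rose and 4 fell. The 6 that rose included RPS19 at 0.34, RPL9 at 0.23, RPS27 at 0.20, RPL32 at 0.18 and RPL5 at 0.13. RPL9 had 586, 568 and 548 scaled CPM in addback libraries and 499, 471 and 478 in WT libraries, with no overlap (adjusted p = 0.0034, edgeR). The 3 that fell were on chromosome 9: RPS6 at -0.39, RPL35 at -0.38 and RPL7A at -0.35 (adjusted p = 0.001, 0.0015 and 0.00099, edgeR). With TMM factors over all genes these were -0.36, -0.35 and -0.33 and did not pass (adjusted p = 0.36, 0.38 and 0.46, edgeR). The count of rises depended on single libraries: it was 2 without addback library 1, addback library 2, WT library 2 or WT library 3, 13 without addback library 3 and 20 without WT library 1.

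Genes of translation outside the family were set beside it. In KO against WT cells 24.1% of low-background genes rose and 27% fell by edgeR. Of genes of at least 100 scaled CPM 32.7% rose and 24.2% fell. Among 20 tested mRNAs known for a terminal oligopyrimidine tract, such as elongation factors, 18 rose and none fell in that comparison. Their median log2 fold change was 0.22. The largest were VIM, an intermediate filament gene, at 1.02, the elongation factor gene EEF2 at 0.51, the poly(A)-binding protein gene PABPC1 at 0.42 and GNB2L1, which encodes the ribosome-bound scaffold RACK1, at 0.31. EEF2 had 3305, 2947 and 2927 scaled CPM in addback libraries, 3747, 3722 and 3668 in KO libraries and 2713, 2563 and 2557 in WT libraries, 3 groups with no overlap. In addback against KO cells 17 of the 20 fell and none rose (median -0.18), where 19.1% of low-background genes fell. In addback against WT cells 5 rose and none fell, where 12% of low-background genes rose.

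Other translation initiation factors moved less evenly, with 15 of 28 higher and 4 lower in KO against WT cells and a median of 0.12. EIF3D, at 0.49, and EIF2S1, at 0.42, were the highest. Of 53 ribosome assembly factors 23 rose and 3 fell, with a median of 0.12. GNL3, a nucleolar GTPase, was at 0.41 and MDN1, the large ATPase that strips assembly factors, was at -0.43. MDN1 had 236, 254 and 273 scaled CPM in addback libraries, 234, 233 and 237 in KO libraries and 282, 312 and 353 in WT libraries. Its level was lowest in library 1 of addback and WT cells, where background was lowest too. The part of background in its fold was not tested. Of 8 chaperones dedicated to ribosomal proteins 3 rose and 2 fell, with a median of 0.05. Of 76 mitochondrial ribosomal proteins, encoded in the nucleus but built into another ribosome, 21 rose and 11 fell, with a median of 0.07, and MRPL41 and MRPL50, both on chromosome 9, were the lowest at -0.53 and -0.52. The shares that rose, against 24.1% of low-background genes, were not tested as sets. In addback against KO cells the counts of rises and falls were 3 and 14 for initiation factors, 3 and 12 for assembly factors, 0 and 1 for chaperones, and 1 and 14 for mitochondrial ribosomal proteins, against 18.7% and 19.1% of low-background genes.

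Among 10 ribosomal protein genes and close paralogs whose symbols lie outside the rule, 4 rose and 2 fell in KO against WT cells. Among low-background genes 24.1% rose and 27% fell, and among all genes tested 7.98% rose and 54.7% fell. FAU, which encodes a small-subunit protein fused to a ubiquitin-like one, averaged 176 ± 15.2 scaled CPM in addback cells, 197 ± 10.6 in KO cells and 160 ± 10.2 in WT cells (SD, n = 3 each), and rose in KO against WT cells by 0.30. RPS27L, a paralog of RPS27 known as a p53 target, had 84.6, 82.7 and 83.8 scaled CPM in addback libraries, 72.7, 60.5 and 72.3 in KO libraries and 55.6, 51.4 and 55.6 in WT libraries. Its addback libraries were the highest of the 3 groups, with a log2 fold change of 0.63 ± 0.07 against WT cells (SE, adjusted p = 0.00074, edgeR) and 0.29 ± 0.07 against KO cells (adjusted p = 0.008, edgeR). The 2 that fell, RPL10L and RPL3L, are tissue-restricted copies, and their levels moved with the background. RPL10L was at 0.673 to 2.93 scaled CPM in addback libraries, 0 in KO libraries and 0.469 to 3.34 in WT libraries. RPL3L was at 2.16 to 7.56 scaled CPM in addback libraries, 0.573 to 0.613 in KO libraries and 1.37 to 9.95 in WT libraries.

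The authors' deposited tables also held regions downstream of gene ends, named there for transcription that continues past the cleavage site. Where the reads in these regions come from was not tested here. The ends of 4 genes whose regions had large folds in both tables are printed, 3 with a signal for cleavage in view and 1 without. Each line gives the last 30 transcribed bases in GENCODE v29 (GRCh38), and capitals mark AATAAA, the signal bound by the cleavage and polyadenylation complex. They are RPL3 at chr22:39312882-39312911 on the minus strand, RPS19 at chr19:41871387-41871416, RPL14 at chr3:40462339-40462368 and RPL13 at chr16:89566799-89566828, the last 3 on the plus strand.
RPL3: ggtctcAATAAAagttattttccactgaca
RPS19: tgctgggttAATAAAttgcctcattcgtaa
RPL14: agtaggattatAATAAAcattaaataatca
RPL13: tgttaaaaatatatgtaattgcaaatcatt

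AATAAA lay within the last 30 bases of 45 of 65 members, or 69.2%, against 56.7% of 15086 coding genes, and ATTAAA in 7 others, or 10.8% against 12.7%. Both strings were searched on the transcribed strand only, and a member with both was counted under AATAAA. RPL13 has neither string in this window.

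In the authors' deposited table of KO against WT, 23 regions carried the name of a member, of which 15 were higher, 1 lower and 7 not past an adjusted p of 0.05. Over all 2541 regions listed there, 24.8% were higher and 25% lower. The members' regions had a median log2 fold change of 0.53, against 0 over all regions. In the authors' deposited table of addback against KO, whose folds are shrunken and so not on the same scale, 0 of 22 member regions were higher, 12 were lower and 10 did not pass, with a median of -0.30; over its 2396 regions 18.6% were higher and 15.5% lower. These tables give no values per library, and the KO libraries are in both.

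The region past RPL3, the gene of a large-subunit protein close to the peptidyl transferase centre, covers chr22:39292083-39312882 and had the member fold farthest from 0 in both of the authors' deposited tables. In KO against WT its log2 fold change there was 2.54 ± 0.13 (SE), which ranked 10 among 2541 regions, and in addback against KO it was -1.35 ± 0.13, the lowest of 2396. The gene itself had a log2 fold change of 0.22 in KO against WT cells and -0.17 in addback against KO cells by edgeR. In the authors' deposited gene tables, where folds of both comparisons appear shrunken, the gene was at 0.46 and -0.42. Per library, the RPL3 gene had 1401, 1352 and 1305 scaled CPM in addback cells, 1565, 1474 and 1532 in KO cells and 1384, 1274 and 1263 in WT cells, with the KO libraries alone above the rest. The region past RPS19, chr19:41871417-41877121, had a log2 fold change of 1.97 ± 0.06 in the authors' deposited table, with the smallest p of all 2541 regions, and a mean normalised count of 8858. In addback against KO that region was lower, at -0.73 ± 0.06 in the authors' deposited table, and the RPS19 gene was lower too in the authors' deposited gene table, at -0.25 (adjusted p = 0.024).

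The authors' deposited tables gave further large region folds for RPL7 (1.61 in KO against WT and -0.56 in addback against KO), RPL14 (1.34 and -1.09), RPS20 (1.21 and -0.70), RPS15 (1.17 and -0.61), RPL13 (1.08 and -1.06), RPS15A (0.98 and -0.90) and RPL11 (0.91 and -0.30). All 7 passed in both tables. Beside its region fold of 1.08 in KO against WT, the RPL13 gene was at 0.30 (adjusted p = 0.012). That gene value is from the authors' deposited gene table, whose folds appear shrunken. On the scaled CPM used here the libraries of that gene overlapped, at 1357, 1340 and 1360 in KO libraries and 1409, 1223 and 1244 in WT libraries. At the low end, the regions past RPL13A and RPS12 were at 0.23 and 0.23 in KO against WT and did not pass in either of the authors' deposited tables. The only lower region in KO against WT, at -0.31 in the authors' deposited table, is named for NUDT3 and RPS10 together and begins 130257 bases past the end of RPS10. The RPS4X region had a mean normalised count of 0.11 and a fold of 0 in the authors' deposited table, with almost no reads behind it.

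**Figure D5:**
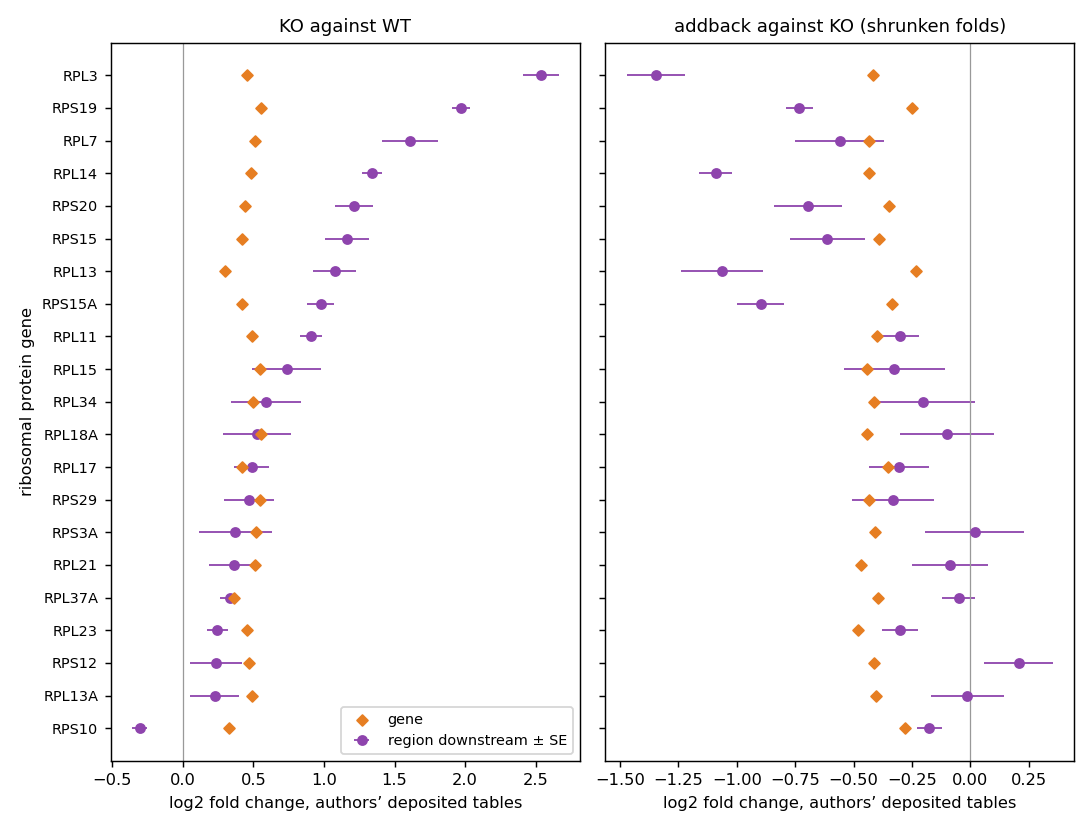
Log2 fold changes from the authors' deposited tables for 21 regions downstream of ribosomal protein genes (circles, with SE) and for the genes themselves (diamonds), in KO against WT (left) and addback against KO (right, shrunken folds on a different scale). The regions of RPL3, RPS19 and RPL7 are farthest right in the left panel, at 2.54, 1.97 and 1.61, while all genes in it lie between 0.30 and 0.56. Gene folds in the left panel appear shrunken, unlike its region folds.

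Of the 23 regions 21 begin within 100 bases of the member's end, and 14 of these were higher and 0 lower in KO against WT in the authors' deposited table. Lengths ran from 4059 to 93899 bases, and 12 regions stop where the next annotated gene starts. In the authors' deposited tables region folds lay above the gene's own fold for 12 of the 23 in KO against WT. The gene folds of that comparison appear shrunken and the region folds do not, so they are not on the same scale. The number was 14 of the 22 in addback against KO. Most folds there were negative, so lying above meant a smaller fall or a rise. Both sets of regions include the one named for NUDT3 and RPS10, far from the end of RPS10. Members with and without a region had median gene-level log2 fold changes of 0.26 over 23 and 0.22 over 54 members in KO against WT cells by edgeR.

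Medians by other features of the genes lay close together. In KO against WT cells the median was 0.23 for the large and 0.23 for the small subunit. The 28 members with snoRNAs inside, 59 snoRNAs in all, had a median of 0.23 and the 49 without had 0.24. By the string at the gene end, medians were 0.22 for the 45 with AATAAA, 0.24 for the 7 with ATTAAA and 0.27 for the 13 with neither. These medians are descriptions without a test.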

How the data were processed

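The authors deposited a count table for 9 libraries (whole-number counts per gene), in which 0 sample columns were left unused, and tables of their own DESeq2 comparisons for genes and downstream regions. The deposited comparison tables hold a mean normalised signal, log2 fold changes with standard errors, a test score (Wald statistic) and p-values. The submitters' processing notes name the build hg38 and the tools STAR 2.5.2b, cutadapt 1.8.1 and DESeq2; which program counted the reads, with what annotation and strand setting, is not given in the sources used here. Other deposited columns give region positions, per the file headers.

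Members and gene lists were chosen with earlier results of these data known. Counts were tested with edgeR 4.0.16 (R 4.3.3; quasi-likelihood, robust, all 9 libraries, filterByExpr, 21994 genes, TMM factors from 5917 low-background genes, Benjamini-Hochberg). Background per kb of coding sequence was estimated from 579 silent genes. The script was checked on simulated data. No library pair was a copy. Addback and WT libraries of the same replicate number had deviations correlated at 0.86, 0.56 and 0.72 over all genes. Over low-background genes these correlations were 0.50, 0.20 and 0.60, and over the members 0.61, -0.11 and 0.52. The main fit paired no libraries, and the replicate number was a block only in an alternative fit. KO deviations correlated with those of addback and WT libraries at -0.06 to 0.02 over all genes. Over the members they correlated at 0.68, 0.16 and 0.17 with addback and 0.57, 0.33 and 0.016 with WT. The addback columns of the count table are headed with KO and U, and were matched by the name of the authors' comparison and because no other group was left. Named genes were the 6 highest and lowest past the test in each comparison, members with regions, members low per kb or high in background, and members with set roles. Results for some single genes are not reported here.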

Additional observations from a re-analysis of the deposited data

How the results depend on the processing

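Scaling, background and single libraries changed counts of calls, and the low counts of RPS10 limit it; other depths were not tried. In KO against WT cells 28 members rose with 2 times the background subtracted; 0, 1 and 0 fell with TMM over all genes, upper quartile factors and DESeq2's own size factors. In addback against KO cells rises numbered 0 with TMM over all genes, 2 and 3 with 1 and 2 times the background subtracted, 2 with the replicate block and 3 without the 4 libraries of highest background, a fit with 1 addback and 1 WT library; falls numbered 23, 4 and 32 with 1 and 2 times the background subtracted and without those libraries. Leaving out 1 library gave 57 to 67 rises and 4 to 5 falls in KO against WT cells, 1 rise and 27 to 56 falls in addback against KO cells, and 2 to 20 rises and 3 falls in addback against WT cells. In that comparison rises numbered 0 with TMM over all genes, 0 with upper quartile factors, 1 with DESeq2's own size factors, 22 with DESeq2 on low-background factors, 21 on low-background genes alone, 21 and 10 with 1 and 2 times the background subtracted, 24 with the replicate block and 2 with only those groups fitted; falls numbered 0 with TMM over all genes. The block changed no other count by over 1.5 times. Among folds past the test in 1 of the settings compared, signs turned in KO against WT cells with TMM over all genes and DESeq2's own size factors for RPS6 (0.13 and 0.054), RPL35 (0.15 and 0.074), RPL7A (0.16 and 0.085) and RPL12 (0.25 and 0.17, and 0.046 with upper quartile factors). They turned in addback against KO cells with DESeq2's own size factors for RPS27 (-0.29), RPS2 (-0.29), RPL13 (-0.28), RPS19 (-0.29) and RPL10A (-0.26), and with 2 times the background subtracted for RPL29 (0.0013), RPL24 (0.012), RPL35A (0.0081) and RPS4X (0.028). Folds past the test in neither setting turned too, such as RPLP0 (0.025 and 0.097) and RPL12 (0.045 and 0.12) with 1 and 2 times the background subtracted, and RPS27 and RPS19 (-0.33 each) with TMM over all genes. TMM over all genes moved the median of all genes by 0.38 and -0.35 in KO against WT and addback against KO cells. Beyond the scalings and background subtractions, the cause was not tested.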
